A study of Saccharomyces cerevisiae with 15 samples.

Results

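The cytosolic small-subunit ribosomal protein genes of Saccharomyces cerevisiae are the 57 genes, RPS0A to RPS31 and ASC1, that encode the 33 proteins of the 40S subunit. They were taken by their systematic names from a deposited table of 6600 genes. All 57 were in the table and passed the filter on low counts, as did 5851 genes in all, and the lowest count of any of them in any library was 178. In this set, 48 genes form 24 pairs of A and B copies left by the ancient duplication of the yeast genome, and 9 genes have a single copy. An intron interrupts 37 of them, and their coding length in the R64 annotation runs from 171 to 960 bases with a median of 432.

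The small subunit binds the mRNA and carries the decoding site. Its proteins are grouped here by their place in the head, the platform or the body of the subunit. These groups were not checked against a structure, so values by group depend on this assignment. Transcription of these genes takes a large share of the work of RNA polymerase II in growing yeast, and it is driven mainly by the factor Rap1 with Fhl1, Ifh1 and Sfp1, which respond to the TOR and protein kinase A pathways. Several members also control their own mRNA: ribosomal protein S14 binds the RPS14B pre-mRNA and blocks its splicing, the introns of the RPS9 genes act in feedback on their own products, the RPS22B intron is cut by the RNase III enzyme Rnt1, and Rps28 controls the decay of the RPS28B mRNA.

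Poly(A)-selected RNA was sequenced from 5 strains of budding yeast, with 3 libraries from biological replicates of each. All 5 carry the chromosomal rpc128-1007 mutation, which hinders assembly of RNA polymerase III (Pol III), the enzyme that transcribes tRNA genes, in 1 haploid strain, MJ15-9C, which is MATa with SUP11 and mutant alleles of ADE2, URA3, LYS2, LEU2 and HIS3. The control, wt, is that mutant with native RPC128 on a centromeric URA3 plasmid; rpc128-1007[-] has an empty vector; rpc128-1007[PRT1] has a multicopy plasmid with PRT1, which codes for part of eIF3, a factor that starts translation, and with the 3′ end of PRE10; rpc128-1007[RBS1] has a multicopy plasmid with RBS1, which encodes an RNA-binding protein that stimulates Pol III assembly; and rpc128-1007[RBS1-R3H] has the same plasmid with an RBS1 allele whose R3H RNA-binding domain is inactive. Both RBS1 plasmids carry LEU2, and whether the PRT1 plasmid used here carried URA3 or LEU2 is not given in the sources used here. The plasmid strains are written [PRT1], [RBS1] and [RBS1-R3H] where no confusion can arise. Cultures grew overnight in medium selective for the plasmid and then in rich glucose medium (YPD) without selection to log phase, so cells that lost a plasmid could be among those harvested. The strains differ in plasmid and in the marker selected overnight as well as in the gene carried, and the wt control is itself a plasmid-complemented mutant.

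The total count per library lay between 7365923 and 12164321. Levels are given as CPM, a gene's count relative to the scaled total of its library, with SD over n = 3. The genes on the plasmids stood where the labels put them: PRT1 was at 4449 to 5057 CPM in the [PRT1] libraries and at no more than 742.9 elsewhere, RBS1 was at 2464 CPM or more in all libraries of both RBS1 strains and at no more than 134.3 in the others, and RPC128, which the reference lists as RET1, was at 432 to 472.7 CPM in wt and at no more than 270.6 in the others. Features of whole libraries bear on the members. In replicate 2 of rpc128-1007[-] and of [RBS1], a gene's deviation from its strain mean rose with gene length, with Spearman coefficients of 0.555 and 0.503 across 5562 genes, given as a description. The trend was not confined to these libraries: the coefficient was 0.421 in replicate 1 and -0.462 in replicate 3 of [PRT1], and -0.392 and -0.457 in replicate 3 of rpc128-1007[-] and of [RBS1]. In every [PRT1] library, the genes of chromosome VIII other than ribosomal protein genes had a median of 0.953 to 0.974 above the wt mean on the log2 scale. In rpc128-1007[-], the corresponding median of chromosome XI was 0.82, 0.357 and 0.489 in replicates 1, 2 and 3, and that of chromosome VIII was 0.103, 0.286 and 0.335. Chromosome I, which holds no member, stood at 0.278 and 0.298 in replicates 2 and 3 of that strain. No other chromosome median in any library of the 5 strains was farther than 0.1 from the wt mean. Gene dosage was not measured in these data.

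The 2 copies of a protein can be told apart only where their sequences differ, so stretches from the pairs that the results turn on are shown first. Each stretch is 30 bases of coding sequence from the RefSeq R64 reference, 5′ to 3′, with the bases that differ between the copies in capitals.
RPS9A (chromosome XVI): atTagGagaCtAgttagagtCggtgtTttA
RPS9B (chromosome II): atCagAagaTtGgttagagtTggtgtCttG
RPS14A (chromosome III): atTtacgcTtcTttCaacgatacTttCgtT
RPS14B (chromosome X): atCtacgcCtcCttTaacgatacCttTgtA
RPS4A (chromosome X): cacgtTaaagtGgacggtaaggttagaacC
RPS4B (chromosome VIII): cacgtCaaagtTgacggtaaggttagaacT
RPS21A (chromosome XI): ggAcgTgcTatCccaggtgaGtacGtTacC
RPS21B (chromosome X): ggCcgCgcCatTccaggtgaAtacAtCacT
RPS27A (chromosome XI): gcAgtTacCtgCgaatcCtgctcAacAAtT
RPS27B (chromosome VIII): gcTgtCacTtgTgaatcAtgctcTacTGtC
The RPS9 copies were 90.9% identical over their coding sequence and shared no identical run longer than 76 bases, and the RPS14 copies were 92.1% identical with a longest run of 92, so a read of 150 bases from the coding sequence of either pair meets a difference. The same held for RPS21 and RPS27, with longest runs of 38 and 23 bases. In RPS4, RPS6 and RPS24 an identical run was longer than a read, with 158, 311 and 152 bases. How the authors placed reads that fit both copies is not given in the sources used here, so the division of counts within these pairs is uncertain.

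The members together took 8.06% to 9.76% of all counts in a library. The mean share was 9.36% ± 0.492 (SD, n = 3) in wt, 9.28% ± 0.137 in [PRT1], 8.81% ± 0.387 in [RBS1-R3H], 8.55% ± 0.444 in rpc128-1007[-] and 8.27% ± 0.186 in [RBS1]. The [RBS1] libraries, at 8.06% to 8.4%, lay below the lowest wt library at 8.81%, whereas they overlapped those of rpc128-1007[-], which began at 8.17%. The exact permutation test of 3 libraries against 3 cannot give a two-sided p below 0.1, so these shares are given with their spread and without a call.

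Levels per kilobase of coding sequence differed widely among the members. RPS31 (YLR167W), which encodes a fusion of ubiquitin to its ribosomal protein, had the highest mean over the 15 libraries, 8569 CPM per kilobase. RPS20 (YHL015W), for a head protein, followed at 7566, and RPS12 (YOR369C), another head protein, at 6771. The place of RPS20 includes its higher level in [PRT1]: in wt alone it stood at 6785 CPM per kilobase, under RPS28A at 7470, RPS15 at 7256, RPS12 at 7151 and RPS30A at 6888. The lowest means over the 15 libraries were those of minor copies of a pair: RPS28B (YLR264W) stood at 375.3 CPM per kilobase, RPS27A (YKL156W) at 380.7 and RPS9A (YPL081W) at 476.5. Their partners RPS28A, RPS27B and RPS9B stood at 6361, 5197 and 3752. RPS14B and RPS22B came next from the bottom, at 494.3 and 613.8. All 5 of these are the minor copy of their pair, and each of them except RPS28B has an intron.

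**Figure D1:**
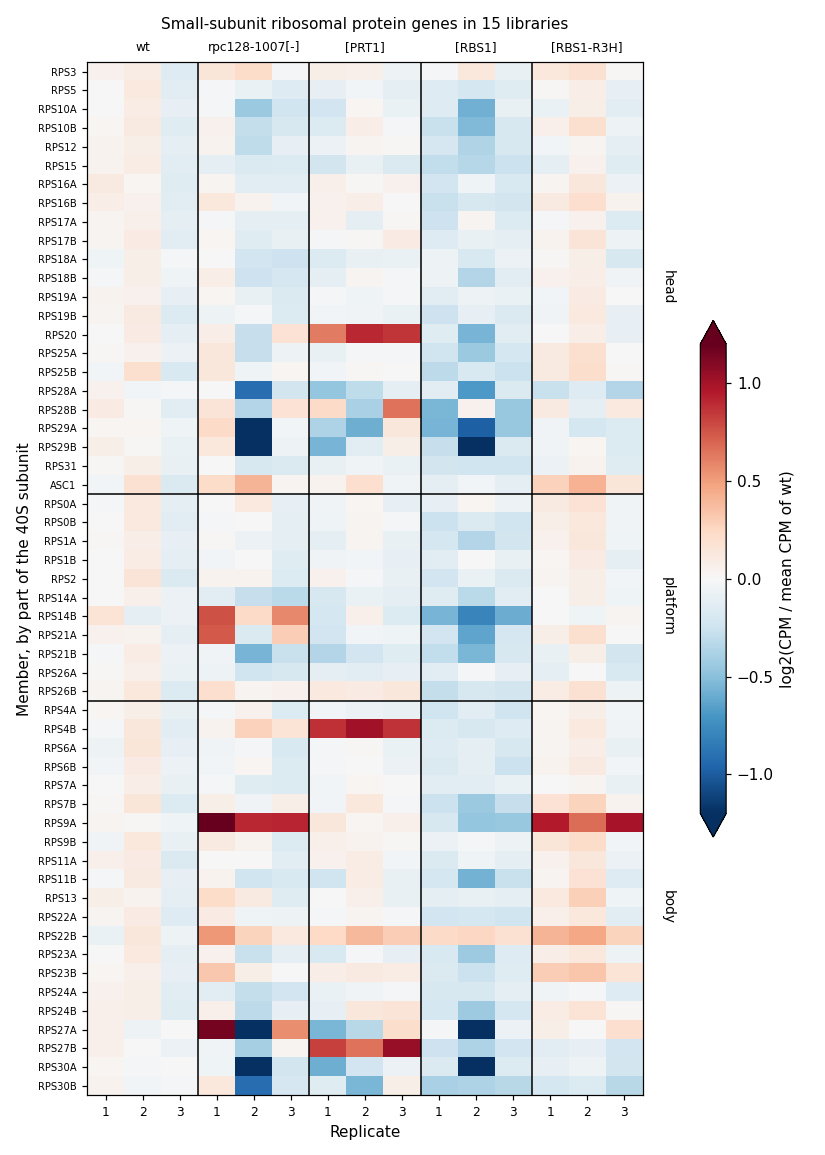
Level of each of 55 members (rows, grouped by part of the 40S subunit) in each of the 15 libraries (columns, 3 replicates per strain), as log2 of the CPM over the mean CPM of wt, with the color scale cut at 1.2 in both directions. [PRT1], [RBS1] and [RBS1-R3H] stand for the rpc128-1007 strains with those plasmids. Most rows are pale; RPS9A, RPS14B, the chromosome VIII genes RPS4B, RPS20 and RPS27B, and the shortest genes in replicate 2 of rpc128-1007[-] and of [RBS1] stand out.

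In the test for any difference among the 5 strains, edgeR's quasi-likelihood test with Benjamini-Hochberg adjustment over all tested genes called 18 of the 57 members at an adjusted p under 0.05, against 45.9% of all tested genes. By group, the call was made for 5 of 23 genes of the head, 6 of 11 of the platform and 7 of 23 of the body. It was made for 5 of the 24 A copies and 11 of the 24 B copies. The B copies were thus near the share over all tested genes and the A copies below it. All 3 members on chromosome VIII were among the 18. Across the 9 pairwise comparisons, 31 members were called in none. Without wt replicate 1 the count over any difference was 10, without replicate 1, 2 or 3 of [RBS1] it was 8, 11 and 9, and without replicate 1 or 2 of [RBS1-R3H] it was 10 in both cases.

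The first pairwise question was what the Pol III assembly mutant does to these genes. Against wt, rpc128-1007[-] had 3 members called higher and 1 called lower, where 12.7% of all tested genes were called higher and 5.62% lower. Of the 745 genes called higher, 216, 88 and 22 were genes other than ribosomal protein genes on chromosomes XI, VIII and I. These chromosomes, whose medians were raised in this strain, hold 2, 3 and no members, so this background includes shifts that few members could share. RPS9A, RPS14B and RPS22B rose, all the minor copy of their pair, and RPS14A fell. All of them have an intron, as do 37 of the 57 members. The median log2 fold change over the 57 members was -0.065, beside 0.013 over all tested genes, and 17 members were above 0. RPS9A, which encodes the body protein S9, known for its part in decoding accuracy, had 214.7, 212.3 and 202.1 CPM in the wt libraries and 521, 392.8 and 395.6 in rpc128-1007[-]. Every mutant library was thus above every wt library, with a log2 fold change of 1.06 (SE 0.118, adjusted p = 2.64e-05). RPS9B, its major copy, had a log2 fold change of -0.0038 (SE 0.0847, adjusted p = 0.985).

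RPS14B (YJL191W), for the platform protein S14, had 230.7, 189.1 and 196.1 CPM in wt and 348.3, 241.4 and 306.1 in rpc128-1007[-]. The libraries did not overlap, which was a condition for naming the highest and lowest members, and the log2 fold change was 0.54 (SE 0.124, adjusted p = 0.00734). RPS14A (YCR031C), the major copy of the same protein, had 2088, 2169 and 1989 CPM in wt and 1892, 1722 and 1666 in the mutant. It fell by 0.24 on the log2 scale (SE 0.0732, adjusted p = 0.0319), again without overlap, but with the length trend removed it had -0.13 with an adjusted p of 0.383, and the call was also lost without replicate 1 or 2 of wt or replicate 2 or 3 of rpc128-1007[-], with a range over all alternatives of 0.00336 to 0.383. RPS22B (YLR367W), for the body protein S22, rose by 0.31 (SE 0.0981, adjusted p = 0.0377), from 191.6, 222.7 and 193.9 CPM to 291.1, 244.7 and 220.4, and its lowest mutant library was below its highest wt library. With chromosome medians removed its log2 fold change was 0.32, with an adjusted p of 0.0503. The gene SNR44 lies within the RPS22B intron, so whether reads of that small nucleolar RNA entered its count is not known. Without wt replicate 1 the count of calls was 2, and with library totals in place of scaling factors the split was 2 higher and 7 lower.

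The next question was whether an overdose of PRT1 changes these genes in the mutant. Against rpc128-1007[-], [PRT1] had 3 members called higher and 2 lower, where the background was 8.1% and 13.7%. Of the 474 genes called higher, 212 were genes other than ribosomal protein genes on chromosome VIII. Of the 804 called lower, 238 and 20 were such genes on chromosomes XI and I. RPS4B, RPS20 and RPS27B rose and RPS9A and RPS14B fell, and the median over the members was 0.033 beside 0.017 over all tested genes. RPS9A stood at 231.1, 212.8 and 218.1 CPM in [PRT1], below every rpc128-1007[-] library, and fell by 0.98 (SE 0.117, adjusted p = 2.91e-05). RPS14B stood at 176.8, 213.8 and 183 CPM and fell by 0.64 (SE 0.124, adjusted p = 0.00161), also without overlap. Set against wt, [PRT1] had log2 fold changes of 0.074 for RPS9A (SE 0.117, adjusted p = 0.738) and -0.10 for RPS14B (SE 0.124, adjusted p = 0.647), so neither was separated from the control by more than its error.

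The members that were higher in [PRT1] are the 3 members on chromosome VIII. RPS4B (YHR203C), for the body protein S4, had 1773, 1972 and 1644 CPM in wt, 1855, 2173 and 2013 in rpc128-1007[-] and 3303, 3606 and 3282 in [PRT1]. RPS20, single in the genome, had 2499, 2664 and 2287 CPM in wt, 2621, 2055 and 2805 in rpc128-1007[-] and 3824, 4652 and 4487 in [PRT1]. RPS27B (YHR021C), the major copy for the zinc-binding protein S27, had 1240, 1193 and 1130 CPM in wt, 1156, 902.9 and 1212 in rpc128-1007[-] and 2098, 1872 and 2459 in [PRT1]. For each of these genes the [PRT1] libraries were above those of the other 4 strains without overlap.

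Against wt, where the background was 7.06% higher and 4.91% lower, these were the members called in [PRT1]: RPS4B rose by 0.92 (SE 0.0813, adjusted p = 2.32e-06), RPS27B by 0.85 (SE 0.112, adjusted p = 9.28e-05) and RPS20 by 0.80 (SE 0.131, adjusted p = 0.000742). None of the other 54 members was called in either direction by edgeR, and limma-voom and edgeR both called 3 members in all, DESeq2 4, and 5 were under an unadjusted p of 0.05. Among the 285 other tested genes of chromosome VIII, 230 were called higher, out of 413 called higher in all, and 0 lower. Their median log2 fold change was 0.96, which is above the values of RPS4B, RPS27B and RPS20. With each chromosome's median removed from each library, a setting chosen after seeing the data, RPS4B had -0.041 (adjusted p = 0.8), RPS27B -0.11 (adjusted p = 0.609) and RPS20 -0.16 (adjusted p = 0.495), and no member was called against wt. The copy number of chromosome VIII in these cultures was not tested.

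**Figure D2:**
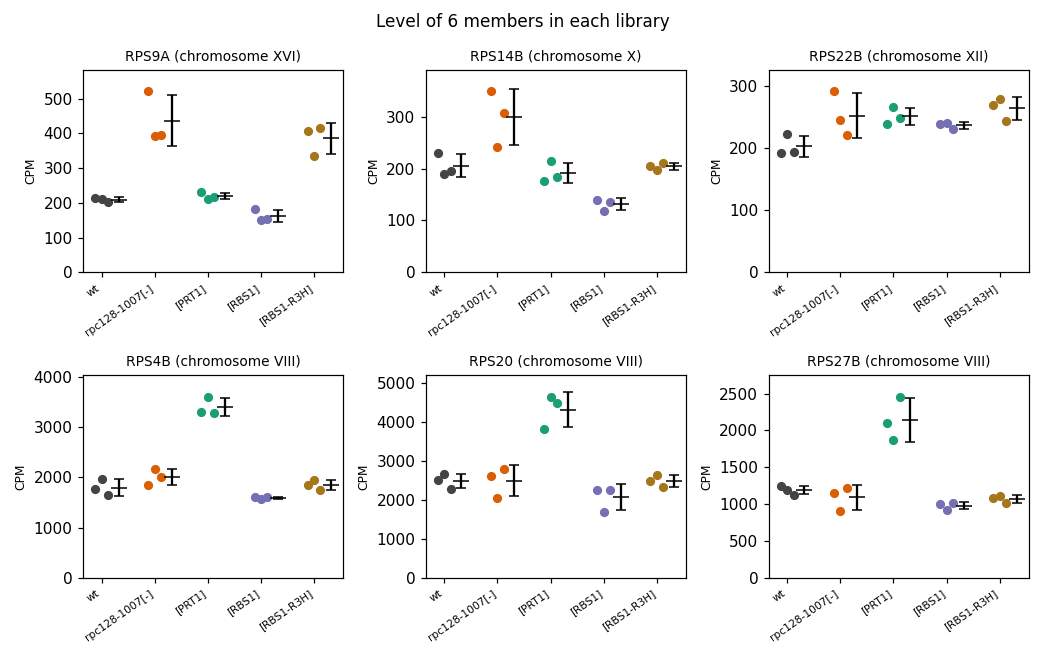
CPM of RPS9A, RPS14B, RPS22B, RPS4B, RPS20 and RPS27B in each of the 3 libraries of 5 strains (points), with the mean and SD beside them (n = 3); each axis starts at 0. RPS9A is at 334.3 CPM or more in rpc128-1007[-] and [RBS1-R3H] and at no more than 231.1 elsewhere, and the genes of chromosome VIII in the lower row are highest in [PRT1].

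The effect of an overdose of RBS1 was tested against the mutant with the empty vector. In [RBS1] 11 members fell and 0 rose, where 17.1% of all tested genes were called lower and 12.6% higher. Of the 1000 genes called lower, 221, 88 and 27 were genes other than ribosomal protein genes on chromosomes XI, VIII and I. The members called lower were 19.3% of the set. With the replicate block 15 members were called lower, where the background was 21.3%. DESeq2 and limma-voom called 0 members higher, and 0 had a higher value at an unadjusted p under 0.05. The median over the members was -0.14, beside -0.013 over all tested genes, and 5 members were above 0. Among the members that fell, 7 were B copies, 3 were A copies and 1 was ASC1, which is 29.2% of the B copies and 12.5% of the A copies.

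RPS9A and RPS14B had the lowest values of that comparison. RPS9A had 183.7, 152.3 and 152.7 CPM in [RBS1], so that all 3 libraries were below those of rpc128-1007[-], and it fell by 1.42 (SE 0.119, adjusted p = 2.68e-06). RPS14B had 139.9, 118.5 and 136.2 CPM and fell by 1.18 (SE 0.126, adjusted p = 2.15e-05). RPS14A, in contrast, had 0.049 (SE 0.0732, adjusted p = 0.667) and RPS9B -0.045 (SE 0.0846, adjusted p = 0.74). The others that fell were RPS21A, RPS7B, RPS4B, RPS23B, RPS26B, ASC1, RPS25B, RPS16B and RPS22A, from -0.68 for RPS21A to -0.22 for RPS22A. RPS21A (YKR057W) is on chromosome XI and RPS4B on chromosome VIII, and the medians of both chromosomes were raised in the rpc128-1007[-] libraries. With the chromosome medians removed, RPS21A had -0.096 (adjusted p = 0.644) and RPS4B -0.12 (adjusted p = 0.292), and 8 members were called lower.

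ASC1 (YMR116C) encodes the yeast homolog of RACK1, a scaffold on the head of the subunit near the mRNA exit, and its intron holds the gene of a small nucleolar RNA, SNR24. It had 2849, 3237 and 2494 CPM in rpc128-1007[-] and 2264, 2384 and 2270 in [RBS1]. It fell by 0.31 (SE 0.111, adjusted p = 0.0484), a call that was lost in 11 of 17 alternatives, with adjusted p from 0.00135 to 0.198. Among them were the fits without replicate 1 or 2 of rpc128-1007[-] and without each [RBS1] library, and leaving out replicate 2 of rpc128-1007[-] gave -0.21 with an adjusted p of 0.192.

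The R3H domain was addressed by the comparison of [RBS1] with [RBS1-R3H], which carry the same plasmid with different alleles. The level of RBS1 mRNA differed as well, at 4223 to 4582 CPM in [RBS1] and 2464 to 3947 in [RBS1-R3H]. RPC128 mRNA was at 185.6 to 212 CPM in [RBS1] and 240.2 to 270.6 in [RBS1-R3H]. The part of these levels in the values of the members was not tested. In this comparison, 19 members were lower in [RBS1] and 0 were higher. Of all tested genes, 14.4% were called lower and 13.5% higher. The members called lower were 33.3% of the set. With the replicate block 28 were called lower, where the background was 17.6%. The count in the higher direction was 0 with DESeq2 and limma-voom and at an unadjusted p under 0.05 as well. Lower values were found in 56 of 57 members, with a median log2 fold change of -0.22, beside 0.012 over all tested genes. The median was -0.21 over the 23 head genes, -0.26 over the 11 platform genes and -0.22 over the 23 body genes. Calls were made for 11 of 24 B copies, 6 of 24 A copies and 2 of 9 single-copy genes.

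RPS9A had 405.8, 334.3 and 416.4 CPM in [RBS1-R3H] and was lower by 1.24 on the log2 scale in [RBS1] (SE 0.118, adjusted p = 3.11e-06). RPS14B had 204.4, 197.9 and 209.9 CPM in [RBS1-R3H] and a difference of -0.63 (SE 0.125, adjusted p = 0.00186). Both pairs of groups were without overlap. ASC1 stood at 2961, 3272 and 2697 CPM in [RBS1-R3H] and had a difference of -0.37 (SE 0.111, adjusted p = 0.0233), a call lost without replicate 1 or 3 of [RBS1] or replicate 1 or 2 of [RBS1-R3H], with adjusted p up to 0.0923. The remaining 16 called members lay between -0.22 and -0.49, and they included RPS1A and RPS26B of the platform, RPS15, RPS16B and RPS25A of the head, and RPS7B, RPS23B and RPS24B of the body. The count depended on single libraries: it was 12 without [RBS1] replicate 1, 9 without [RBS1-R3H] replicate 2 and up to 27 without [RBS1-R3H] replicate 3. It also depended on the scaling, since with library totals 8 members were called, all lower, while the median of all tested genes in this comparison moved to 0.14 and that of the members to -0.09. The distance of the members' median from that of all tested genes was -0.23 with library totals and -0.23 with scaling factors computed without ribosomal protein genes.

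**Figure D3:**
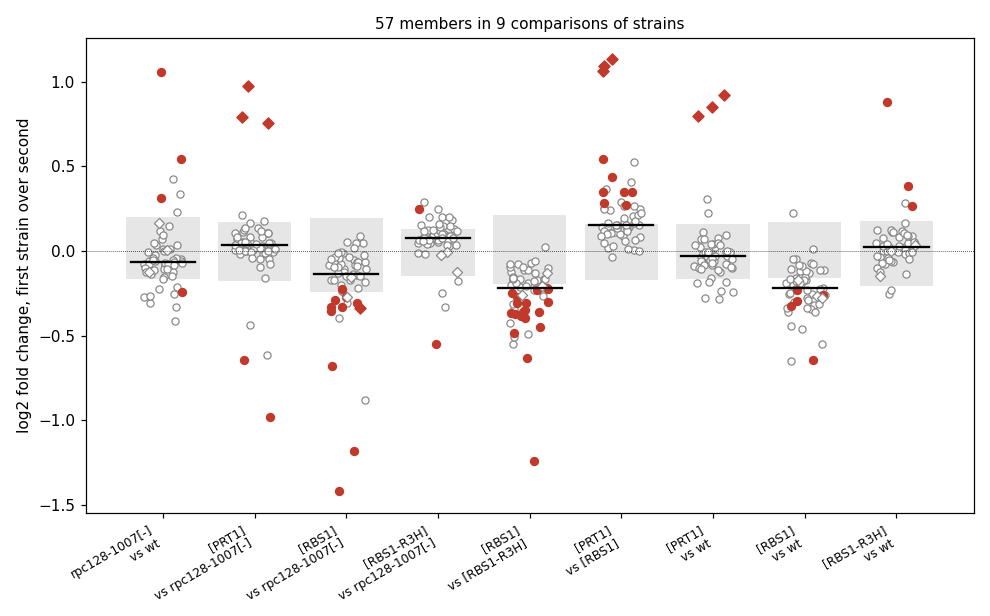
Log2 fold change of each of the 57 members (points) in each of 9 comparisons, first strain over second; red points passed an adjusted p of 0.05, diamonds are the 3 members on chromosome VIII, black lines are medians of the members and gray bars span the middle 50% of all tested genes. The medians of the members are at -0.22 in [RBS1] against [RBS1-R3H] and against wt, and the diamonds stand apart in the comparisons with [PRT1].

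Set against wt, [RBS1] had 5 members called lower and 0 higher, with a background of 4.29% and 6.53%. RPS14B fell by 0.64 (SE 0.125, adjusted p = 0.00635). RPS7B (YNL096C), the minor copy for a body protein, had 721, 789.9 and 637.2 CPM in wt and 598.9, 526.9 and 589.4 in [RBS1], and it fell by 0.32 (SE 0.0896, adjusted p = 0.0356). RPS31 had 4249, 4414 and 3938 CPM in wt and 3604, 3567 and 3549 in [RBS1], and it fell by 0.23 (SE 0.0701, adjusted p = 0.0478). RPS15 and RPS1A were the other calls, at -0.30 and -0.26. Of the 57 members, 55 had values below 0, with a median of -0.22. With edgeR, 26 were lower at an unadjusted p under 0.05, against 1 higher. DESeq2 called 10 lower and 0 higher and limma-voom 5 and 0. The background of 4.29% and 6.53% is for edgeR's adjusted p and cannot be set beside these counts. Each library decided this count: it was 1 without wt replicate 1 or 2 or [RBS1] replicate 1 or 2, 2 without [RBS1] replicate 3 and 10 without wt replicate 3, the library in which all 57 members were below the wt mean. The call of RPS31 was lost in 12 of 17 alternatives, with adjusted p from 0.0176 to 0.168, and that of RPS7B in 7 of 17, from 0.0124 to 0.147, both without any 1 of these libraries other than wt replicate 3, whereas that of RPS14B held in all 17, from 7e-05 to 0.0292. RPS9A stood at -0.36 against wt (SE 0.117, adjusted p = 0.0643) and was not called.

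Few members were called in [RBS1-R3H], the allele that lacks a working RNA-binding domain, against the mutant with the empty vector: 1 member was called higher and 1 lower, with a background of 4.67% and 6.8%, and a median over the members of 0.076. Of the 398 tested genes called lower, 216, 48 and 10 were genes other than ribosomal protein genes on chromosomes XI, VIII and I. RPS14A rose by 0.25 (SE 0.0732, adjusted p = 0.0412) to 2080, 2182 and 2012 CPM, and RPS14B fell by 0.55 (SE 0.124, adjusted p = 0.011). RPS9A had -0.18 (SE 0.116, adjusted p = 0.418), with overlapping libraries. The count was 1 without replicate 2 or 3 of rpc128-1007[-] and 0 without replicate 1 or 2 of [RBS1-R3H]. RPS14A was not called in 8 of 17 alternatives, with adjusted p from 0.00555 to 0.188, and RPS14B not in 3, from 0.000948 to 0.0713. The same 4 libraries each ended the call of RPS14A, and the replicates 1 and 2 of [RBS1-R3H] that of RPS14B.

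Against wt, [RBS1-R3H] had 3 members called higher and 0 lower, with a background of 13.4% and 9.55%. RPS9A rose by 0.88 (SE 0.117, adjusted p = 7.6e-05). RPS22B rose by 0.38 (SE 0.0982, adjusted p = 0.0115), with 269.6, 279.4 and 243.7 CPM, above every wt library, and RPS23B, for a protein at the decoding site, by 0.26 (SE 0.083, adjusted p = 0.0338). DESeq2 and limma-voom called 3 higher and 0 lower as well, and 0 members were lower at an unadjusted p under 0.05. With library totals the split was 2 higher and 4 lower, since that scaling moved the median of all tested genes to -0.12. Without wt replicate 3 or [RBS1-R3H] replicate 2 the count was 1, and the call of RPS22B was lost, with an adjusted p of up to 0.0553.

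The 2 suppressor plasmids were compared with each other last. In [PRT1] against [RBS1] 10 members were called higher and 0 lower, with a background of 8.55% and 7.78%. Of the 500 tested genes called higher, 229 were genes other than ribosomal protein genes on chromosome VIII. DESeq2 and limma-voom also called 10 members higher and 0 lower, and 0 were lower at an unadjusted p under 0.05. RPS27B had 1001, 920.4 and 1015 CPM in [RBS1] and was higher in [PRT1] by 1.13 (SE 0.113, adjusted p = 5.71e-06), and RPS4B, with 1601, 1575 and 1615 CPM in [RBS1], by 1.09 (SE 0.0816, adjusted p = 7.56e-07). RPS20 was higher by 1.06. The remaining 7 were RPS14B, RPS9A, RPS7B, RPS24B, RPS26B, RPS23B and RPS16B, from 0.27 to 0.54, none of them on chromosome VIII, and 6 of these 7 are B copies. With chromosome medians removed 7 members were called, and RPS27B, RPS4B and RPS20 had 0.20, 0.16 and 0.14 with adjusted p of 0.297, 0.224 and 0.563. The count was 6 without replicate 2 or replicate 3 of [RBS1].

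The division of each pair between its copies was read as the share of the A copy in the counts of both. Of the 24 pairs, RPS4 had the widest range of strain means, 16.9 percentage points. RPS4A held 58.9%, 57.1% and 58.8% of the pair in wt and 42.6%, 39.8% and 41.8% in [PRT1], where RPS4B on chromosome VIII was raised, with the caution on shared reads given above. In RPS21 the range was 10.1 points: RPS21A held 61.4%, 54.8% and 57.8% in rpc128-1007[-], where the median of its chromosome XI was raised, and no more than 51.7% in any library of another strain. RPS21A itself had 2061, 1095 and 1518 CPM in rpc128-1007[-] and 1283, 1271 and 1148 in wt, so the levels overlapped where the shares did not.

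RPS9 had a range of 9.53 points. RPS9A held 8.82% ± 0.522 (SD, n = 3) of the pair in wt, 16.7% ± 1.65 in rpc128-1007[-], 14.2% ± 2.39 in [RBS1-R3H], 8.99% ± 0.292 in [PRT1] and 7.2% ± 0.812 in [RBS1]. The libraries of rpc128-1007[-] and [RBS1-R3H] overlapped each other and were above those of the other 3 strains. RPS14A held 85.5% ± 1.87 of its pair in rpc128-1007[-], between 90.9% and 91.1% on average in wt, [PRT1] and [RBS1-R3H], and 93.3% ± 0.158 in [RBS1], with a range of 7.72 points. The RPS14 share therefore put [RBS1-R3H] with wt and the RPS9 share put it with rpc128-1007[-]. RPS26A, whose protein lines the mRNA exit channel and which has no intron, held 66.2% ± 1.16 in wt, 68.5% ± 0.392 in [RBS1] and between 62% and 63.4% on average in the other 3, a range of 6.49 points. With the counts of the copies summed to 1 feature per protein before the fit, 0 of 33 proteins were called in rpc128-1007[-] against wt and 12 in [RBS1] against [RBS1-R3H]. The share of all features called in that fit is not given, so these counts cannot be set beside a background.

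**Figure D4:**
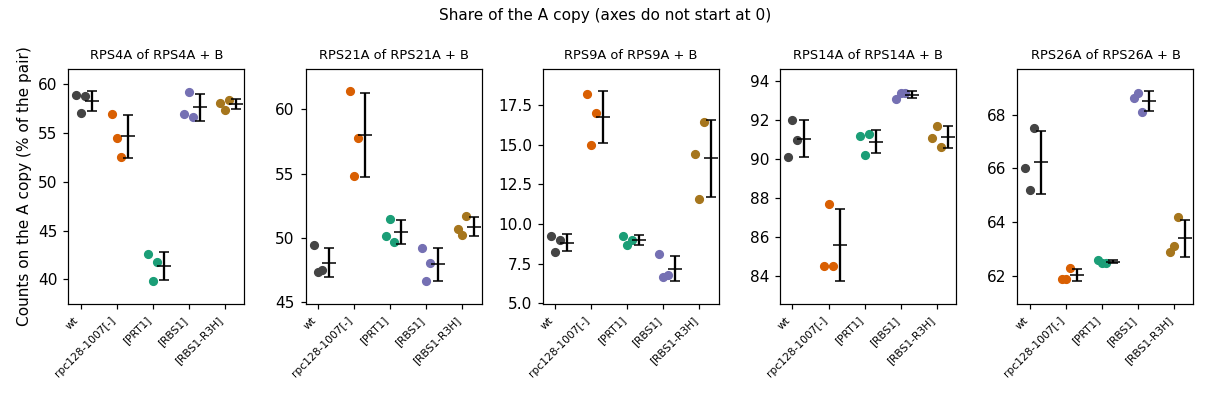
Share of the A copy in the counts of a pair (percent) in each library (points) with the mean and SD (n = 3), for the 5 pairs with the widest range of strain means; the axes do not start at 0. RPS9A and RPS21A are highest in rpc128-1007[-], RPS14A is lowest there, and RPS4A is lowest in [PRT1].

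Replicate 2 stood apart in the short members of some strains. Among the 10 members with under 300 bases of coding sequence, replicate 2 of rpc128-1007[-] was below the mean of replicates 1 and 3 in 10, with a median of -0.84 on the log2 scale, and replicate 2 of [RBS1] in 9, with a median of -0.45. Among the 14 members of 600 bases or more the medians were 0.11 and 0.098. RPS27A, the minor copy for S27, had 210.2, 31.73 and 139.1 CPM in rpc128-1007[-] and 93.27, 21.99 and 89.99 in [RBS1], against 98.74, 90.57 and 94.47 in wt. RPS29B had 938.7, 321.4 and 828 CPM in rpc128-1007[-] and 713.1, 290.9 and 763.3 in [RBS1], and RPS29A and RPS30A were low in the same libraries. The SE of the RPS27A fold change in rpc128-1007[-] against wt was 0.524, on a log2 fold change of 0.42, and no difference of that size was detectable. None of the 10 short members was called in [RBS1] against [RBS1-R3H], although all 10 had values below 0 and a median of -0.33, and 1 of them, RPS27B, was called in [PRT1] against wt. With replicate 2 of both strains left out, 11 members were called lower in [RBS1] against rpc128-1007[-] and 14 in [RBS1] against [RBS1-R3H]. The share of all tested genes called lower in that fit is not given, so these counts cannot be set beside a background.

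**Figure D5:**
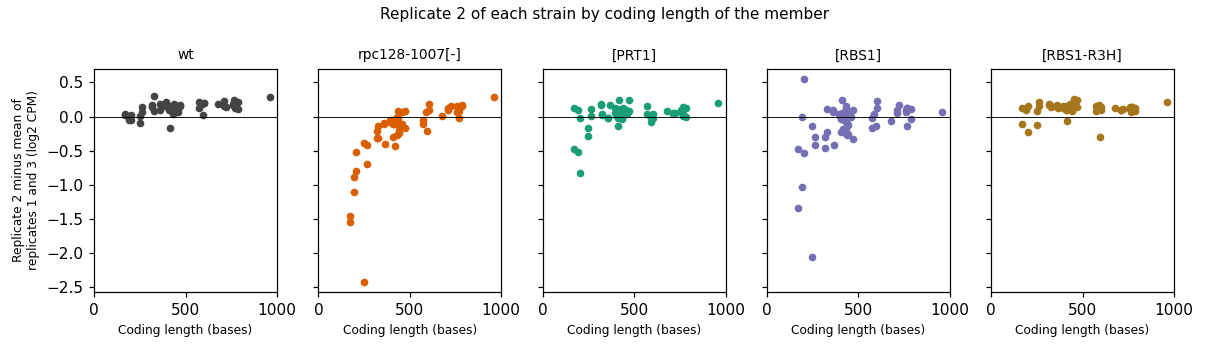
Log2 CPM of replicate 2 minus the mean of replicates 1 and 3 for each of the 57 members (points), by coding length in bases, in each strain. In rpc128-1007[-] and [RBS1] the members under 300 bases reach -2.42 and -2.05, both for RPS27A.

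The other parts of the same machinery were counted beside the members. Of 80 large-subunit ribosomal protein genes tested, 1 was called higher and 27 lower in [RBS1] against [RBS1-R3H], with a median of -0.21, and 7 higher and 1 lower in rpc128-1007[-] against wt, with a median of -0.074, where the background was 13.5% higher and 14.4% lower in the first comparison and 12.7% and 5.62% in the second. Those called higher in the second comparison included RPL8A and RPL14B of chromosome VIII and RPL14A, RPL17A and RPL40B of chromosome XI. The medians of these chromosomes were raised in rpc128-1007[-]. Of 19 factors that mature the 40S subunit or chaperone its proteins, 3 were called higher and 0 lower in [RBS1] against [RBS1-R3H], with a median of 0.17, and 4 higher and 1 lower in [RBS1] against rpc128-1007[-], where the background was 12.6% higher and 17.1% lower. Of 29 regulators of ribosomal protein gene transcription, 2 were called higher and 5 lower in [RBS1] against [RBS1-R3H] and 5 higher and 2 lower in rpc128-1007[-] against wt. Calls in either direction in [RBS1] against [RBS1-R3H] were made for 35% of the large-subunit genes, 15.8% of the maturation factors and 24.1% of the regulators, against 27.9% of all tested genes, so the counts of the maturation factors and regulators did not exceed the background. The medians of the small and the large subunit genes thus lay near each other in these comparisons, and the maturation factors had a median of the opposite sign in [RBS1] against [RBS1-R3H].

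The 500 bases before each start codon were searched on both strands for a Rap1 core, ACCCNTACA, and for the site of Gcn4, TGACTCA, the activator of amino acid biosynthesis genes. The Rap1 core was found before 12 of the 57 members, or 21.1%, and before 1.79% of 6019 genes in the reference. These examples, each with the match in capitals, come from called members.
RPS16B (chromosome IV): cagaaaaaacACCCATACAtgttgaaaaa
RPS23B (chromosome XVI): atctccaaacACCCATACAtatttatatt
RPS11B (chromosome II): tccttgctgcACCCATACAattctaaacc
In [RBS1] against [RBS1-R3H], 3 of the 12 members with a match were called lower and 16 of the 45 without one, and the medians were -0.19 and -0.23. Only exact matches were counted, so a member without one may still hold a Rap1 site. These groups therefore do not separate members by Rap1. A Gcn4 site was found before RPS13, RPS19A and RPS28A, and before 3.99% of all genes. None of these 3 members was called in any of the 9 comparisons.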

How the data were processed

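Poly(A) RNA-seq libraries of 5 yeast strains with 3 biological replicates each were used. The authors mapped paired reads of 150 bases to the EF4 assembly with TopHat2 2.0.11, counted them per gene in R and deposited raw counts per gene and library without normalization; DESeq2 1.24.0 was their test. Counting mode, strand and treatment of reads that fit several genes are not given in the sources used here. The EF4 assembly was not available for this report, so no coordinates are printed.

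Samples were grouped by their labels. Library totals were adjusted with TMM factors (0.932 to 1.05), and the counts were tested with edgeR 4.0.16 (R 4.3.3, quasi-likelihood, all 15 libraries in 1 fit, filterByExpr with a minimum count of 10, Benjamini-Hochberg over 5851 genes, threshold 0.05). SE is the log2 fold change over the root of F. Shares over all tested genes are from the edgeR fit at the adjusted threshold, except those named for the replicate block. Such shares are not given for DESeq2, limma-voom, an unadjusted p or the other alternatives, so counts from those cannot be set beside a background. The code was tested on simulated data. Names, lengths and sequences came from RefSeq R64, which matched 5917 identifiers; the others held 0.215% of counts. Between replicates the chi-square per gene was 8.93 to 63.4.

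Members and lists were chosen with earlier results of these data known. Named are ASC1 and RPS31; in each comparison the 2 highest and 2 lowest called members whose libraries did not overlap; the 3 highest and 3 lowest levels per kilobase; and the 5 pairs with the widest range of A-copy share. Other members are named because they were called, are the partner of such a gene, lie on chromosome VIII or XI or are short; RPS13, RPS19A, RPS28A, RPS29A, RPS29B and RPS30A were chosen after their values were seen. Lack of overlap in the highest and lowest members follows from this choice and adds no support to their calls. The share of all tested genes without overlap is not given, so lack of overlap adds no support for other members or comparisons either. Genes of 1 pair entered every fit and count but are not reported singly here.

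Replicate numbers were taken as pairing where the deviations of every same-numbered pair correlated above 0.1, which held for rpc128-1007[-] against wt (0.155 to 0.249), [RBS1] against rpc128-1007[-] (0.555 to 0.732), [RBS1] against [RBS1-R3H] (0.158 to 0.314) and [PRT1] against wt (0.262 to 0.358). The fit reported used strain only, and the replicate block was an alternative. In each replicate, rpc128-1007[-] and [RBS1] had length trends of the same sign, and the part of these trends in the correlation was not tested. No source names a shared day or batch. Alternatives were DESeq2 1.42.0, limma-voom (limma 3.58.1), other scalings, no filter, the replicate block, pairs of strains alone, libraries left out, the length trend removed, summed copies and, chosen after seeing the data, chromosome medians removed.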

Additional observations from a re-analysis of the deposited data

How the results depend on the processing

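The counts of called members rest on many settings. For the settings in this paragraph no share over all tested genes is given, so the counts have no background beside them. With library totals in place of scaling factors they were 9 in rpc128-1007[-] against wt (4 in the fit reported), 8 in [RBS1] against [RBS1-R3H] (19) and 6 in [RBS1-R3H] against wt (3). With the 2 strains fitted alone they were 1 in rpc128-1007[-] against wt, 5 in [RBS1] against rpc128-1007[-] (11), 0 in [RBS1-R3H] against rpc128-1007[-] (2) and 3 in [RBS1] against wt (5). DESeq2 called 10 in [RBS1] against wt, and leaving out replicate 2 of rpc128-1007[-] and of [RBS1] left 1 there. With copies summed, the called proteins were 0 in rpc128-1007[-] against wt, 3 in [PRT1] against rpc128-1007[-] (5), 3 in [RBS1] against rpc128-1007[-], 0 in [RBS1-R3H] against rpc128-1007[-], 12 in [RBS1] against [RBS1-R3H], 3 in [PRT1] against [RBS1] (10), 2 in [RBS1] against wt, 0 in [RBS1-R3H] against wt and 6 for any difference (18). Here the members entered the fit as 33 features, beside all the other genes. With the length trend removed the count in [RBS1-R3H] against rpc128-1007[-] was 1. With chromosome medians removed, chosen after seeing the data, it was 2 in [PRT1] against rpc128-1007[-], 1 in [RBS1-R3H] against rpc128-1007[-] and 0 in [PRT1] against wt, where RPS27B turned to -0.11 and RPS4B to -0.041. The causes of the other shifts were not tested.

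Leaving out 1 library at a time gave 2 to 5 calls in rpc128-1007[-] against wt, 5 to 6 in [PRT1] and 8 to 13 in [RBS1] against rpc128-1007[-], 0 to 2 in [RBS1-R3H] against rpc128-1007[-], 9 to 27 in [RBS1] against [RBS1-R3H], 6 to 8 in [PRT1] against [RBS1], 3 to 4 in [PRT1] against wt, 1 to 10 in [RBS1] against wt, 1 to 4 in [RBS1-R3H] against wt and 8 to 21 for any difference. With the replicate block, 15 members were called in [RBS1] against wt and 15 in [PRT1] against [RBS1], where the numbers did not pair the libraries. In the comparisons where they did, the block changed no named call and gave counts of 6, 15, 28 and 4 in place of 4, 11, 19 and 3. Of 408 alternatives for 24 named results, 346 kept direction and call, 60 kept the direction and lost the call and 2 turned the direction. The lowest count of any member in any library was 178.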

Other observations

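Some large-subunit genes lie on the same chromosomes as small-subunit members. In [PRT1] against wt, the chromosome VIII genes RPL8A, RPL14B, RPL27A and RPL42B rose by 0.82, 0.97, 0.92 and 0.94 on the log2 scale, with edgeR adjusted p of 3.58e-06, 3.84e-07, 1.15e-06 and 5.8e-07. In rpc128-1007[-] against wt, the chromosome XI genes RPL14A, RPL17A and RPL40B rose by 0.61, 0.57 and 0.65, with adjusted p of 0.0022, 0.00149 and 0.00247. The members there, RPS21A and RPS27A, had 0.34 and 0.42 and were not called (adjusted p = 0.207 and 0.629). Both have under 300 bases of coding sequence. Replicate 2 of rpc128-1007[-] minus the mean of replicates 1 and 3 was -0.69 and -2.42 for them on the log2 scale. The part of this spread in the missing calls was not tested. RPL14A and RPL14B, the copies of 1 protein, lie on chromosomes XI and VIII, and in [PRT1] against rpc128-1007[-] they had -0.59 and 0.72, with adjusted p of 0.00189 and 2.91e-06. Copy number was not measured, and its part in these values was not tested.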
